A study of Mus musculus with 2 samples.

Results

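C-type lectin receptors are cell surface proteins of macrophages and dendritic cells that bind sugars and lipids on microbes and on the body's own glycoproteins. The 10 genes described here were found by gene symbol, from a set drawn up with earlier results of these data known, out of 23444 gene symbols in the deposited tables: the mannose receptor Mrc1, the galactose-type lectins Mgl2 and Clec10a, the Syk-coupled receptors Clec7a, Clec4e, Clec4d and Clec4n, the inhibitory receptor Clec4a2, and the DC-SIGN homologues Cd209a and Cd209d. All 10 were found, on 16 transcript rows in each table, and 8 of them reached 1 FPKM in either library and are called detected. FPKM is a transcript level, corrected for transcript length (per kilobase) and for sequencing depth, so levels of different genes in a library can be set side by side.

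The RNA came from bone marrow derived macrophages, which are grown in culture from marrow precursors, of FVB mice. There was 1 library per group. One was labelled RON TK-/- and RON deficient, from mice that lack the RON tyrosine kinase, and the other WT and RON proficient. RON, encoded by Mst1r, is a receptor tyrosine kinase of macrophages, and the comparison asks how the M2 transcriptome differs with and without it. Per the labels both cultures were kept in high-glucose DMEM with serum and given recombinant interleukin-4 for 72 hours at 10 ng/mL, the cytokine that induces the M2 state. The labels do not say how many mice were used, and with 1 library per group no test, p-value or replicate error could be had. Every difference below is between these 2 libraries, and genotype, culture and library cannot be told apart.

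The libraries were checked against their labels before use. The tables imply about 67100000 reads for the RON TK-/- labelled library and about 59800000 for the WT labelled library. Mst1r was listed at 0 FPKM in both libraries, so it checked neither label. Arg1, a marker of the response to interleukin-4, had 5041 FPKM in the RON TK-/- labelled library and 1.0 FPKM in the WT labelled library, and Chil3 and Retnla, markers of the same kind, had 4604 and 3665 FPKM in the RON TK-/- labelled library and were listed at 0 in the WT labelled library. These markers do not match the treatment on the WT label, and each direction rests on the labels as deposited. All 10 macrophage markers were detected (Cd68 at 955 and 746 FPKM in the RON TK-/- and the WT labelled libraries, Lyz2 at 4651 and 3317, Csf1r at 267 and 184), but 2 were higher and 3 lower by 2-fold (1 and 4 after the median ratio of all detected genes was scaled to 0). The lower ones were Cd14 (33.7 FPKM in the RON TK-/- labelled library, 1010 FPKM in the WT labelled library), Fcgr1 (3.58 and 26.6 FPKM) and Mertk (9.68 and 32.5 FPKM). Of other cells' markers, 2 of 10 dendritic cell genes, 1 of 9 neutrophil genes, 0 of 9 lymphocyte genes and 0 of 10 eosinophil and mast cell genes were detected. The summed level of the dendritic cell list was 12.1 FPKM in the RON TK-/- labelled library and 23.1 FPKM in the WT labelled library. Most of each sum was Batf3, at 11.4 and 18.9 FPKM. The other detected gene, Cd207, had 0.0909 and 1.94 FPKM, and Siglech and Clec9a were at 0 in both. In the fibroblast and endothelial list 7 of 10 were detected, at 896 and 676 FPKM summed, with Col1a2 at 433 and 407 FPKM. The part of other cells in the results was not tested, and in bulk RNA fewer expressing cells and less RNA per cell cannot be told apart.

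As background, receptors of this family fall into a few working types. Endocytic receptors such as the mannose receptor and the macrophage galactose-type lectins take up glycosylated cargo, and in mouse macrophages Mrc1, Mgl2 and Clec10a are widely used as markers of the interleukin-4 state. Dectin-1, Mincle and the Dectin-2 type receptors signal through the kinase Syk and the adaptor CARD9 to NF-kB, and the Mincle gene Clec4e is known to be induced by inflammatory stimuli. DCIR-type receptors carry an inhibitory tyrosine motif that recruits phosphatases.

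The 10 genes divided into 5 that were higher, 3 that were lower and 2 at or near 0. Higher in the RON TK-/- labelled library were the endocytic receptors Mrc1, Mgl2 and Clec10a, the beta-glucan receptor Clec7a and the inhibitory receptor Clec4a2. Lower were Clec4e, Clec4n and Clec4d. Differences are given as log2 of FPKM + 1 in the RON TK-/- labelled library over FPKM + 1 in the WT labelled library, a scale that understates differences of low genes, and a gene was called higher or lower at 2-fold on it. As background, 25.6% of the 11288 detected genes of the tables were higher and 8.71% were lower, and their median ratio was 0.57 (log2). The median over all 10 lectin genes was 1.14, with the undetected Cd209a and Cd209d counted at their ratios of 0.25 and 0.00. Over the 8 detected genes it was 2.35, or 1.71 after the rescaling to a median of 0 over all detected genes. Each of the medians over the detected genes lies between the ratios of Clec4a2 and Clec7a, within the higher genes. They do not describe the lower genes, which lie far from them. The median of 1.14 lies between the ratios of the undetected Cd209a and of Clec4a2, and describes neither the higher nor the lower genes. Rescaling the RON TK-/- labelled library so that the median of all detected genes was 0 turned the shares of all genes to 8.42% higher and 13.9% lower, and left the same 5 lectin genes higher and the same 3 lower.

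**Figure D1:**
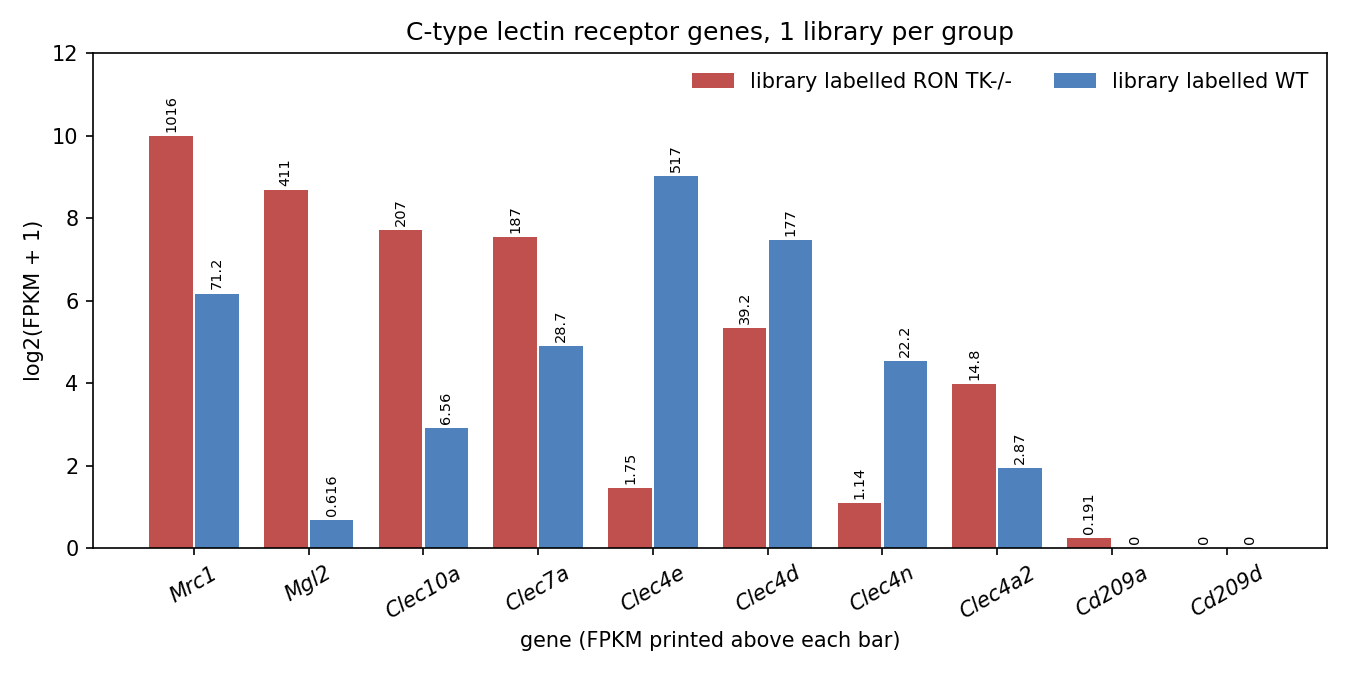
Level of each of the 10 lectin receptor genes as log2(FPKM + 1), with the FPKM printed above each bar; red bars are the library labelled RON TK-/- and blue bars the library labelled WT, 1 library each, so there are no error bars. Mrc1, Mgl2, Clec10a, Clec7a and Clec4a2 have the taller red bar, and Clec4e, Clec4d and Clec4n the taller blue bar.

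Mrc1 encodes the mannose receptor CD206, which takes up glycoproteins that end in mannose, fucose or N-acetylglucosamine. It had 1016 FPKM in the RON TK-/- labelled library and 71.2 FPKM in the WT labelled library. This was the highest level of the 10 genes in the RON TK-/- labelled library, at percentile 99.6 of all detected genes, and still the third highest in the WT labelled library, at percentile 91.1. The log2 ratio was 3.82, and 40 of the 11288 detected genes (0.354%) were higher by more. The gene lies on the plus strand of chromosome 2 from 14229414 to 14332023 (coordinates here and below are those of mm10), with a transcript of 5318 bases.

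Mgl2 and Clec10a encode the macrophage galactose-type lectins CD301b and CD301a, which bind galactose and N-acetylgalactosamine. Mgl2 had 411 FPKM in the RON TK-/- labelled library and 0.616 FPKM in the WT labelled library, where about 49 reads gave a 95% counting interval of 0.459 to 0.821 FPKM. Its log2 ratio of 7.99 was exceeded by 4 of the 11288 detected genes, and the interval covers counting error only. Clec10a had 207 FPKM in the RON TK-/- labelled library and 6.56 FPKM in the WT labelled library, a log2 ratio of 4.78. The order of the pair was turned round: Mgl2 stood at 1.98 times the level of Clec10a in the RON TK-/- labelled library, and Clec10a at 10.6 times the level of Mgl2 in the WT labelled library. Mgl2 was thus the second most abundant of the lectin genes in the RON TK-/- labelled library and, among those not listed at 0, the least abundant in the WT labelled library.

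The galactose-type lectin genes are neighbours on the plus strand of chromosome 11, Mgl2 from 70130357 to 70137542 and Clec10a from 70166623 to 70170836, with no other gene of the tables between them. They also share part of their transcript sequence. Of the 50-base stretches in their annotated transcripts, 17.0% for Mgl2 and 16.2% for Clec10a also occur in another gene's transcripts. Of these, 242 occur in each other, so reads could have been split between the pair and their separate levels are uncertain. The less abundant gene is affected most. In the WT labelled library Clec10a had about 565 reads and Mgl2 about 49. Reads from Clec10a could therefore make up much or all of the Mgl2 level there, which was not tested. The ratio of Mgl2 between the libraries and the ratio of the pair in the WT labelled library are uncertain for the same reason. Summed, the pair had 618 FPKM in the RON TK-/- labelled library and 7.18 FPKM in the WT labelled library. The neighbouring hepatic lectin genes Asgr1 and Asgr2, which encode the asialoglycoprotein receptor, had at most 0.197 FPKM in either library.

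Clec7a encodes Dectin-1, the receptor for fungal beta-glucan, which carries its own tyrosine motif for Syk. It had 187 FPKM in the RON TK-/- labelled library and 28.7 FPKM in the WT labelled library, a log2 ratio of 2.66. Clec7a was well expressed in both libraries and was the fourth highest of the 10 genes in each. It was the Syk-coupled gene whose direction differed from those of Clec4e, Clec4d and Clec4n.

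Clec4e encodes Mincle, which recognises mycobacterial cord factor and products of dead cells and signals through the Fc receptor gamma chain. Its level was 1.75 FPKM in the RON TK-/- labelled library and 517 FPKM in the WT labelled library. The lower value rests on about 287 reads, with a 95% counting interval of 1.56 to 1.97 FPKM. Clec4e was the most abundant lectin gene of the WT labelled library and the seventh of the RON TK-/- labelled library. Its log2 ratio was -7.56, and 19 of the 11288 detected genes (0.168%) were lower by more.

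Clec4d encodes MCL, also named Dectin-3, which pairs with Mincle and with Dectin-2. It was lower too but by less, at 39.2 FPKM in the RON TK-/- labelled library and 177 FPKM in the WT labelled library, a log2 ratio of -2.14. Clec4n encodes Dectin-2, the receptor for fungal alpha-mannan, and had 1.14 FPKM in the RON TK-/- labelled library and 22.2 FPKM in the WT labelled library, a log2 ratio of -3.44. Clec4d, unlike Clec4e and Clec4n, was well above 1 FPKM in both libraries. The ratio of Clec4d to Clec4e was 22.4 in the RON TK-/- labelled library and 0.342 in the WT labelled library. The transcripts of these partner receptors thus stood in reverse order, and protein was not measured.

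Clec4a2 encodes DCIR, a receptor with an inhibitory motif. It had 14.8 FPKM in the RON TK-/- labelled library and 2.87 FPKM in the WT labelled library, a log2 ratio of 2.03. Of the 4 genes of its chromosome 6 group it was the one that was higher. Part of its sequence is shared with relatives: 7.77% of its 50-base stretches occur in other genes, mostly in Clec4a4 and Clec4b1, which had at most 1.29 FPKM in either library.

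Cd209a and Cd209d, mouse homologues of the human dendritic cell lectin DC-SIGN, were not detected. Cd209a had 0.191 FPKM in the RON TK-/- labelled library (about 21 reads, 95% counting interval 0.121 to 0.299 FPKM) and was listed at 0 in the WT labelled library, where 3 reads would have given 0.0338 FPKM. Cd209d was listed at 0 in both libraries, where 3 reads would have given 0.0518 and 0.0582 FPKM in the RON TK-/- and the WT labelled libraries. Neither is therefore called higher or lower. The Cd209 genes lie on the minus strand of chromosome 8, Cd209a from 3743395 to 3748984 and Cd209d from 3871824 to 3878499. Cd209e between them had 0.349 FPKM in the RON TK-/- labelled library and was listed at 0 in the WT labelled library, and Rprl3, the other gene between them, was at 0 in both.

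**Figure D2:**
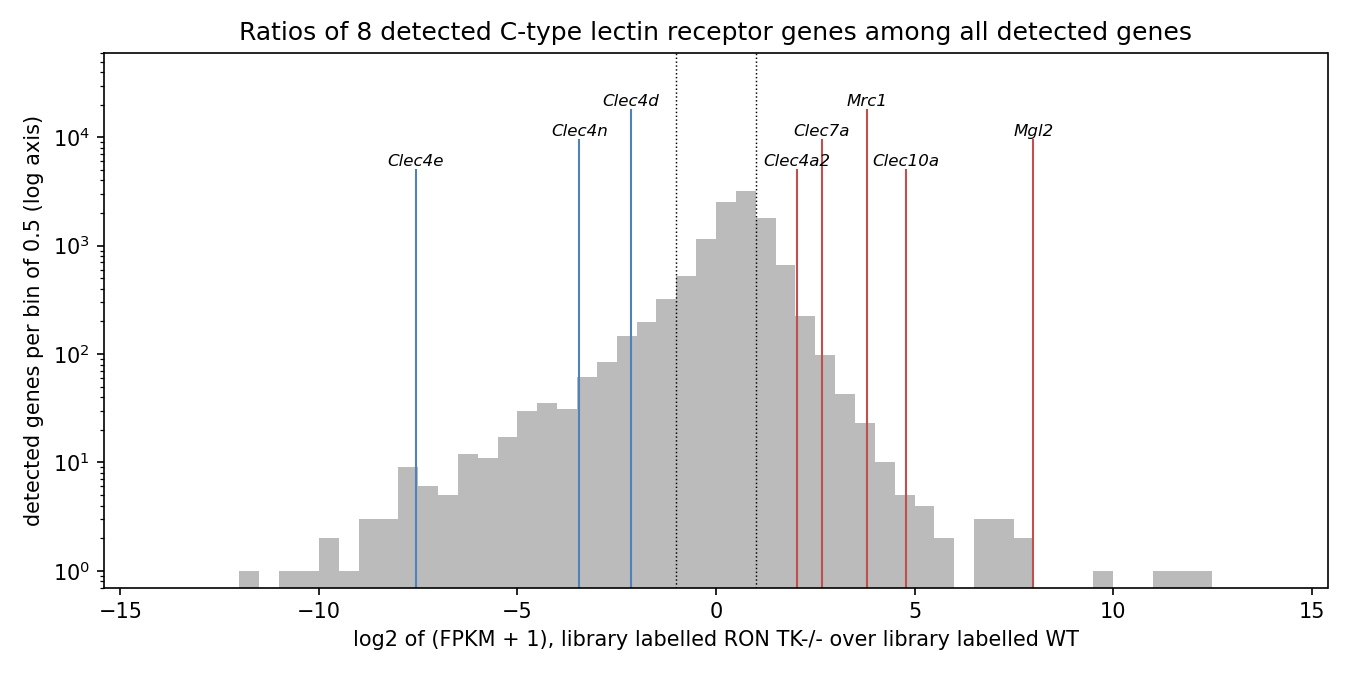
Number of detected genes (log axis) by log2 ratio of FPKM + 1, library labelled RON TK-/- over library labelled WT, in bins of 0.5, with the 8 detected lectin receptor genes drawn as vertical lines and the 2-fold limits as dotted lines. All 8 lie outside the dotted lines, from -7.56 for Clec4e to 7.99 for Mgl2.

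The make-up of the lectin receptor level differed more than its total. Summed over the 10 genes, the level was 1878 FPKM in the RON TK-/- labelled library and 826 FPKM in the WT labelled library, which is 0.421% and 0.194% of all FPKM listed in those libraries. Mrc1 made up 54.1% of the sum in the RON TK-/- labelled library and 8.62% in the WT labelled library. Mgl2 and Clec10a together made up 32.9% in the RON TK-/- labelled library and 0.869% in the WT labelled library. The sum in the RON TK-/- labelled library thus came mostly from the endocytic receptors. Clec4e made up 0.0933% of the sum in the RON TK-/- labelled library and 62.6% in the WT labelled library, and Clec4e, Clec4d and Clec4n together 2.24% and 86.7% in the same order of libraries. Clec7a held 9.94% in the RON TK-/- labelled library and 3.47% in the WT labelled library. These shares do not depend on how the libraries are scaled to each other.

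**Figure D3:**
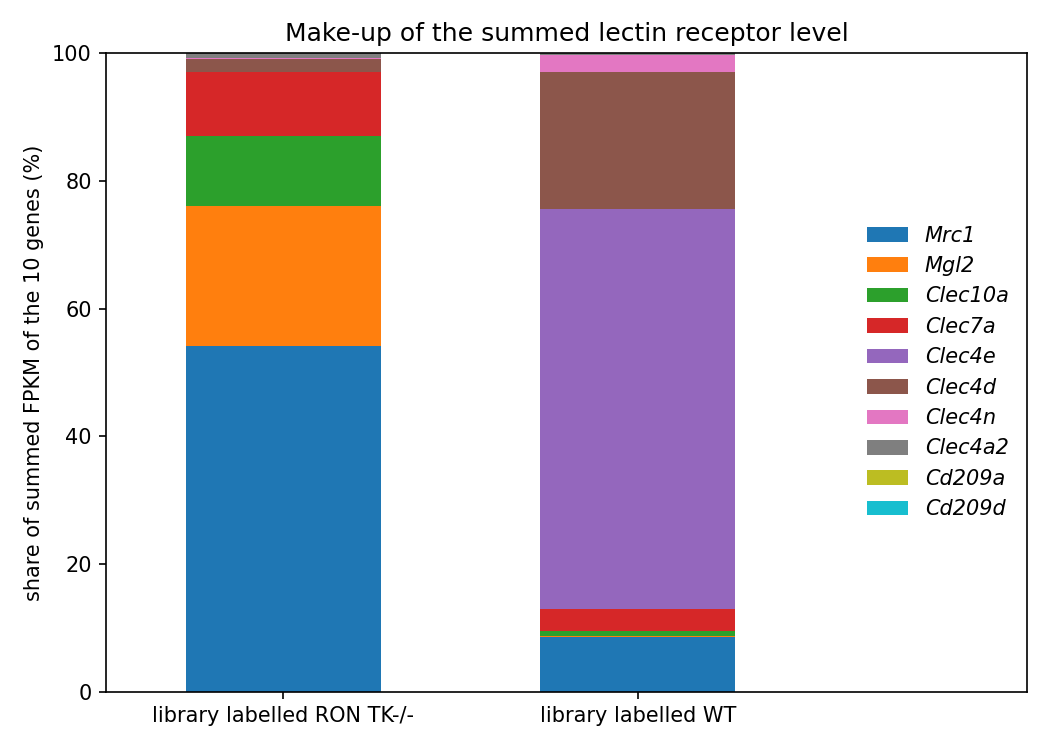
Share of the summed FPKM of the 10 genes held by each gene, in percent, with the library labelled RON TK-/- on the left and the library labelled WT on the right. Mrc1 (54.1%) fills most of the left bar and Clec4e (62.6%) most of the right bar.

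Transcript rows of a gene were in most cases shifted in the same direction. Mrc1, Mgl2, Clec7a, Clec4e, Cd209a and Cd209d each had 1 row. The Clec10a rows of 1498 and 1501 bases held 58.4% and 41.6% of the gene in the RON TK-/- labelled library, against 64.8% and 35.2% in the WT labelled library. For Clec4d, the row of 1336 bases held 87.1% in the RON TK-/- labelled library and 88.8% in the WT labelled library. These rows differ by only 3 bases in length, and reads of 50 bases separate such rows poorly. Larger shifts were listed for Clec4n and Clec4a2. The Clec4n row of 1143 bases held 26.0% of the gene in the WT labelled library, at 5.77 FPKM, and a value next to 0 in the RON TK-/- labelled library, where about 94 reads covered the gene. The Clec4a2 row of 2401 bases held 22.8% in the RON TK-/- labelled library, at 3.38 FPKM, and 0.0129% in the WT labelled library, while the row of 2553 bases held 9.46% and 29.2%. Clec4n and Clec4a2 are low in one library each, and how the authors' program divided reads between rows was not tested.

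The Clec4 genes showed opposite differences within a short stretch of chromosome 6. Clec4a2 (123122690 to 123143999), Clec4n (123229843 to 123247024), Clec4d (123262107 to 123275268) and Clec4e (123281789 to 123289871) lie within 167 kb, Clec4e on the minus strand and the others on the plus strand. The 3 adjacent genes at the far end, Clec4n, Clec4d and Clec4e, were the lower ones, and Clec4a2 at the near end was higher. Clec4b2, the gene between Clec4a2 and Clec4n, was listed at 0 in both libraries. Of further lectin genes within 300 kb, Clec4a3 had 36.8 FPKM in the RON TK-/- labelled library and 1.67 FPKM in the WT labelled library, and Clec4b1 had 1.29 FPKM in the RON TK-/- labelled library and was listed at 0 in the WT labelled library. Clec4a1 was within 2-fold, at 8.56 FPKM in the RON TK-/- labelled library and 11.4 FPKM in the WT labelled library. In this stretch the higher genes thus lay on the Clec4a side and the lower genes on the Clec4e side.

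Clec7a stood in a different neighbourhood 6.17 Mb away on the same chromosome, from 129461591 to 129472777 on the minus strand. Olr1, the oxidised low-density lipoprotein receptor next to it, had 0.155 FPKM in the RON TK-/- labelled library and 10.6 FPKM in the WT labelled library. Clec12a, an inhibitory receptor for uric acid crystals, had 13.8 FPKM in the RON TK-/- labelled library and 87.9 FPKM in the WT labelled library, and the activation marker Cd69 had 0.273 and 392 FPKM. Clec2d had 33.8 FPKM in the RON TK-/- labelled library and 111 FPKM in the WT labelled library. Clec12b, Clec1b and Clec9a were listed at 0 in both libraries, and Clec1a had at most 0.108 FPKM. Clec7a was therefore higher while the 4 detected lectin genes listed within 300 kb of it were lower. The list left out the natural killer receptor (Klr) genes. The neighbours outside the rule for named genes were picked for their position.

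**Figure D4:**
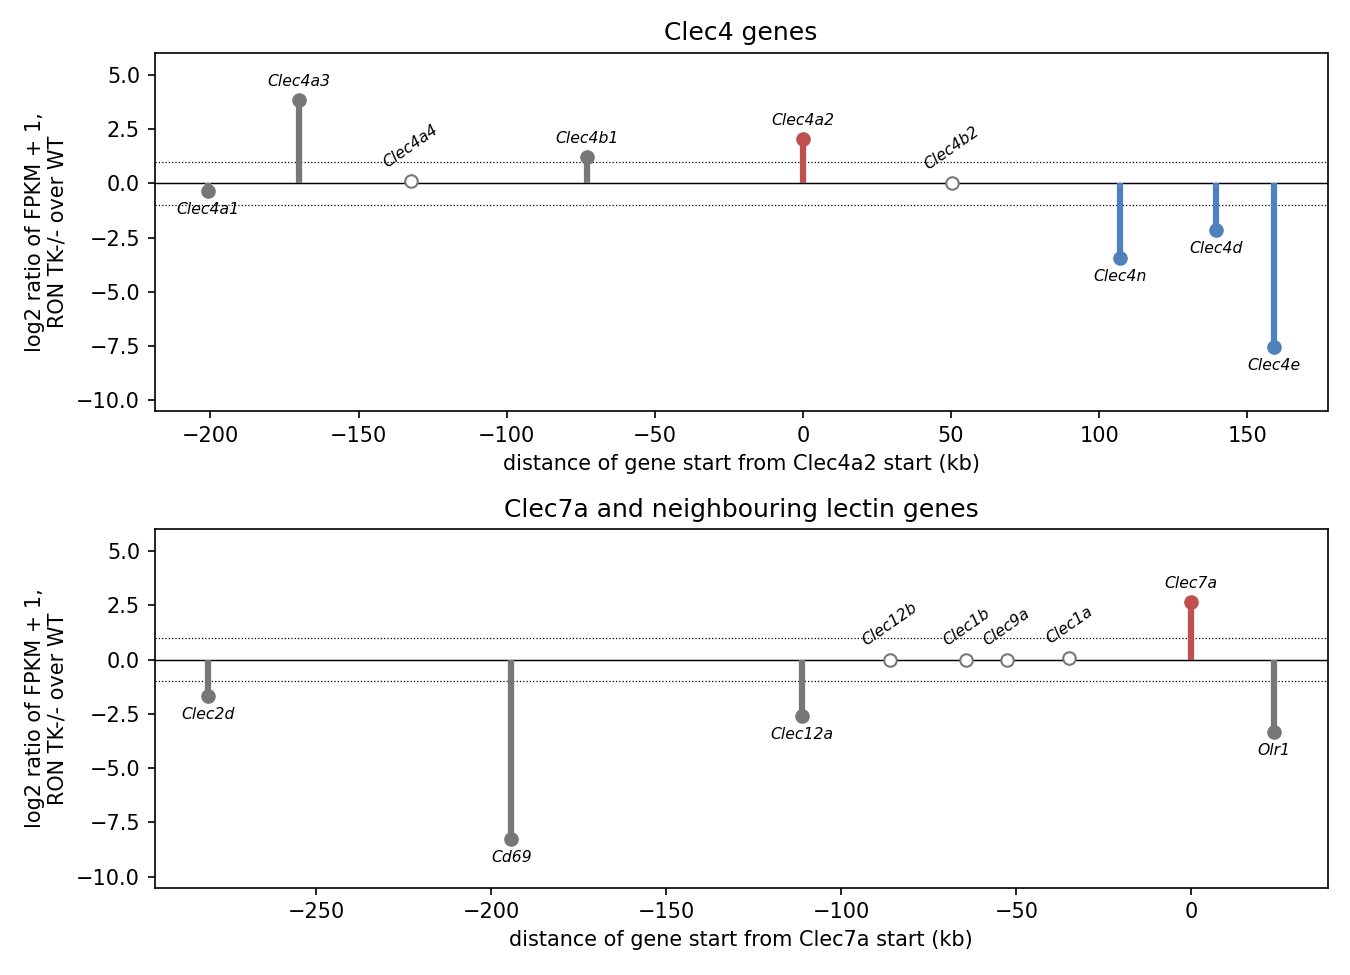
Log2 ratio of FPKM + 1, library labelled RON TK-/- over library labelled WT, against the distance of each gene's start from that of Clec4a2 (upper panel) or Clec7a (lower panel) in kb; coloured stems are the receptor genes described, grey stems other lectin genes and the gene between, open circles genes under 1 FPKM in both libraries, and dotted lines the 2-fold limits. Clec4n, Clec4d and Clec4e point down while Clec4a2 and Clec4a3 point up, and Clec7a points up among Clec12a, Cd69, Clec2d and Olr1, which point down.

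The promoters of the genes that lay farthest apart are printed because several receptors were higher together and several lower together. The windows, from RefSeq on build GRCm38.p6, run from 250 bases before the start of the gene to 50 bases after it, and 8 of the 10 genes matched. Clec10a and Clec4n did not match. Capitals mark matches on either strand to the motifs searched, of which there were 9: TTCNNNNGAA for STAT6, TTGCNNAA for C/EBP, GAGGAA for PU.1, GAAANNGAAA for IRF, TGANTCA for AP-1, TCACGTG for the E-box of MITF and TFE, AGGTCANAGGTCA for PPAR with RXR, GGGTGTG for KLF, and the NF-kB motif. Higher genes come first and lower genes after them.
Mrc1, chr2:14229164-14229463, plus strand: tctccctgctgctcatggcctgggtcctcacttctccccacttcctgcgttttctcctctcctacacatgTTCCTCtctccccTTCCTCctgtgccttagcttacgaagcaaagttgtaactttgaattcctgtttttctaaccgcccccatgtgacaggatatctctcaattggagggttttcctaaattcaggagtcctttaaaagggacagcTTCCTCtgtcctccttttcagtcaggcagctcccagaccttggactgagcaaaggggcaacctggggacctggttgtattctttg
Mgl2, chr11:70130107-70130406, plus strand: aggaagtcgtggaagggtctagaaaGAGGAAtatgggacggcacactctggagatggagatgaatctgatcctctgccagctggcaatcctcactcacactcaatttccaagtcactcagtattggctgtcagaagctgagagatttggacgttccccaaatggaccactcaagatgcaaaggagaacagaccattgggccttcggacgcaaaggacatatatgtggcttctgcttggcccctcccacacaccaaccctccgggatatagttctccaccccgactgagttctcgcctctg
Clec7a, chr6:129472730-129473029, minus strand: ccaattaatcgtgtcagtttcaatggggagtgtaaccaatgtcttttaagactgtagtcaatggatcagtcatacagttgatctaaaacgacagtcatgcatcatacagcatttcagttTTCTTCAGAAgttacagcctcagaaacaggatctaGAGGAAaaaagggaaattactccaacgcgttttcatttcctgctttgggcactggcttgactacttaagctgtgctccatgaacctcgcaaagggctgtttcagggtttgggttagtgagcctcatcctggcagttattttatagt
Clec4e, chr6:123289822-123290121, minus strand: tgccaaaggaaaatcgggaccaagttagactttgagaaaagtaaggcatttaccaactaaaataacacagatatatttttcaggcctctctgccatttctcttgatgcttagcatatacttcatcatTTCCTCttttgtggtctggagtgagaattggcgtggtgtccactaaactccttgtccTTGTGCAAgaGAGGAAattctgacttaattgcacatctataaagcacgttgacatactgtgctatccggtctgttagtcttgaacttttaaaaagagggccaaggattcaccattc
Clec4d, chr6:123261857-123262156, plus strand: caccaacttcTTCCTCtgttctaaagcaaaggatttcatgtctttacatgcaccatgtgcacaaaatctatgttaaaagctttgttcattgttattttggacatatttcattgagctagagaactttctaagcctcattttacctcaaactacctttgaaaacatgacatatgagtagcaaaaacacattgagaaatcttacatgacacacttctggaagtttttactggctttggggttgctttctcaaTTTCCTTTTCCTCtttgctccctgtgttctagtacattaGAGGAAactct

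The matches set no boundary between the higher and the lower genes. GAGGAA was found in 6 of the 8 windows, those of Mrc1, Mgl2, Clec7a, Clec4e, Clec4d and Cd209d, beside 28.3% of all 32851 RefSeq windows. TTCNNNNGAA was found in Clec7a alone of the 8, as TTCTTCAGAA starting 131 bases before the gene start, beside 6.95% of all windows. TTGCNNAA was found in Clec4e alone, as TTGTGCAA starting 66 bases before the start, beside 10.8% of all windows. The GAAANNGAAA match of Clec4d overlaps a GAGGAA match, and this motif occurs in 3.44% of all windows. Clec4a2 held a match to TGANTCA, found in 7.81% of all windows. No window of the 8 held the NF-kB motif (8.46% of all windows), the E-box (3.77%), the KLF motif (7.95%) or the PPAR with RXR motif (0.0396%). A match is a string of letters and not a bound site, and enhancers farther away were not searched.

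Genes for the proteins that carry lectin receptor signals were more often lower than higher. Of 31 such genes, all detected, 4 were higher, 11 lower and 16 within 2-fold, beside 25.6% higher and 8.71% lower of all detected genes. With median rescaling 2 were higher and 14 lower, beside 8.42% and 13.9%. Their median ratio was -0.35 (log2), beside 0.57 for all detected genes. Syk, the kinase recruited by Clec7a and by the gamma chain, had 56.5 FPKM in the RON TK-/- labelled library and 134 FPKM in the WT labelled library. Fcer1g, the gamma chain with which Mincle, MCL and Dectin-2 associate, was abundant in both, at 492 FPKM in the RON TK-/- labelled library and 746 FPKM in the WT labelled library. It was within 2-fold as deposited (log2 ratio -0.60) and was called lower with median rescaling (-1.26). Card9 went the other way, at 19.8 FPKM in the RON TK-/- labelled library and 4.20 FPKM in the WT labelled library. Malt1, the protease that acts with CARD9 and BCL10, had 5.88 FPKM in the RON TK-/- labelled library and 250 FPKM in the WT labelled library, a log2 ratio of -5.19. The CARD9 complex therefore had members in both directions.

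Other signalling genes far apart were lower as well. Among them were the NF-kB subunits Relb (4.19 FPKM in the RON TK-/- labelled library, 55.9 FPKM in the WT labelled library) and Rel (5.09 and 40.1 FPKM), the kinase Src (12.5 and 145 FPKM) and the adaptor Pik3ap1 (18.5 and 101 FPKM). Besides Card9, the higher genes were the lipid phosphatase Inpp5d, the lipid kinase Pik3cd and the transcription factor Nfatc2, named after their values were seen. With median rescaling Pik3cd (log2 ratio 1.14 as deposited, 0.51 rescaled) and Nfatc2 (1.23 and 0.81) were no longer called. The direction of 7 genes within 2-fold, among them Tyrobp, Plcg2 and Ptpn11, turned with median rescaling.

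Receptors and transcription factors known to act upstream of these lectin genes included higher and lower ones. Of 19 genes, all detected, 6 were higher, 8 lower and 5 within 2-fold, beside 25.6% higher and 8.71% lower of all detected genes. With median rescaling 6 were higher and 9 lower, beside 8.42% and 13.9%. Nfkb1 and Rela, both lower, are also counted in the signalling list. The interleukin-4 receptor chain Il4ra had 59.6 FPKM in the RON TK-/- labelled library and 52.3 FPKM in the WT labelled library, and Irf4 had 2.88 and 2.49 FPKM; both were within 2-fold and their direction turned with median rescaling. Stat6, which carries the interleukin-4 signal, had 48.8 FPKM in the RON TK-/- labelled library and 25.6 FPKM in the WT labelled library, also within 2-fold. Pparg, a nuclear receptor of lipid metabolism induced by interleukin-4, had 26.2 FPKM in the RON TK-/- labelled library and 2.92 FPKM in the WT labelled library, and its partner Rxra had 12.6 and 1.64 FPKM. Both were higher, as were Klf4 at 61.9 FPKM in the RON TK-/- labelled library and 8.0 FPKM in the WT labelled library and the endotoxin receptor Tlr4 at 73.8 and 5.72 FPKM. Nfkb1 was lower, at 37.5 FPKM in the RON TK-/- labelled library and 199 FPKM in the WT labelled library. Also among the lower genes, named after their values were seen, were Myd88 (23.2 and 108 FPKM), Cebpb (65.9 and 262 FPKM) and Spi1 (131 and 302 FPKM).

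**Figure D5:**
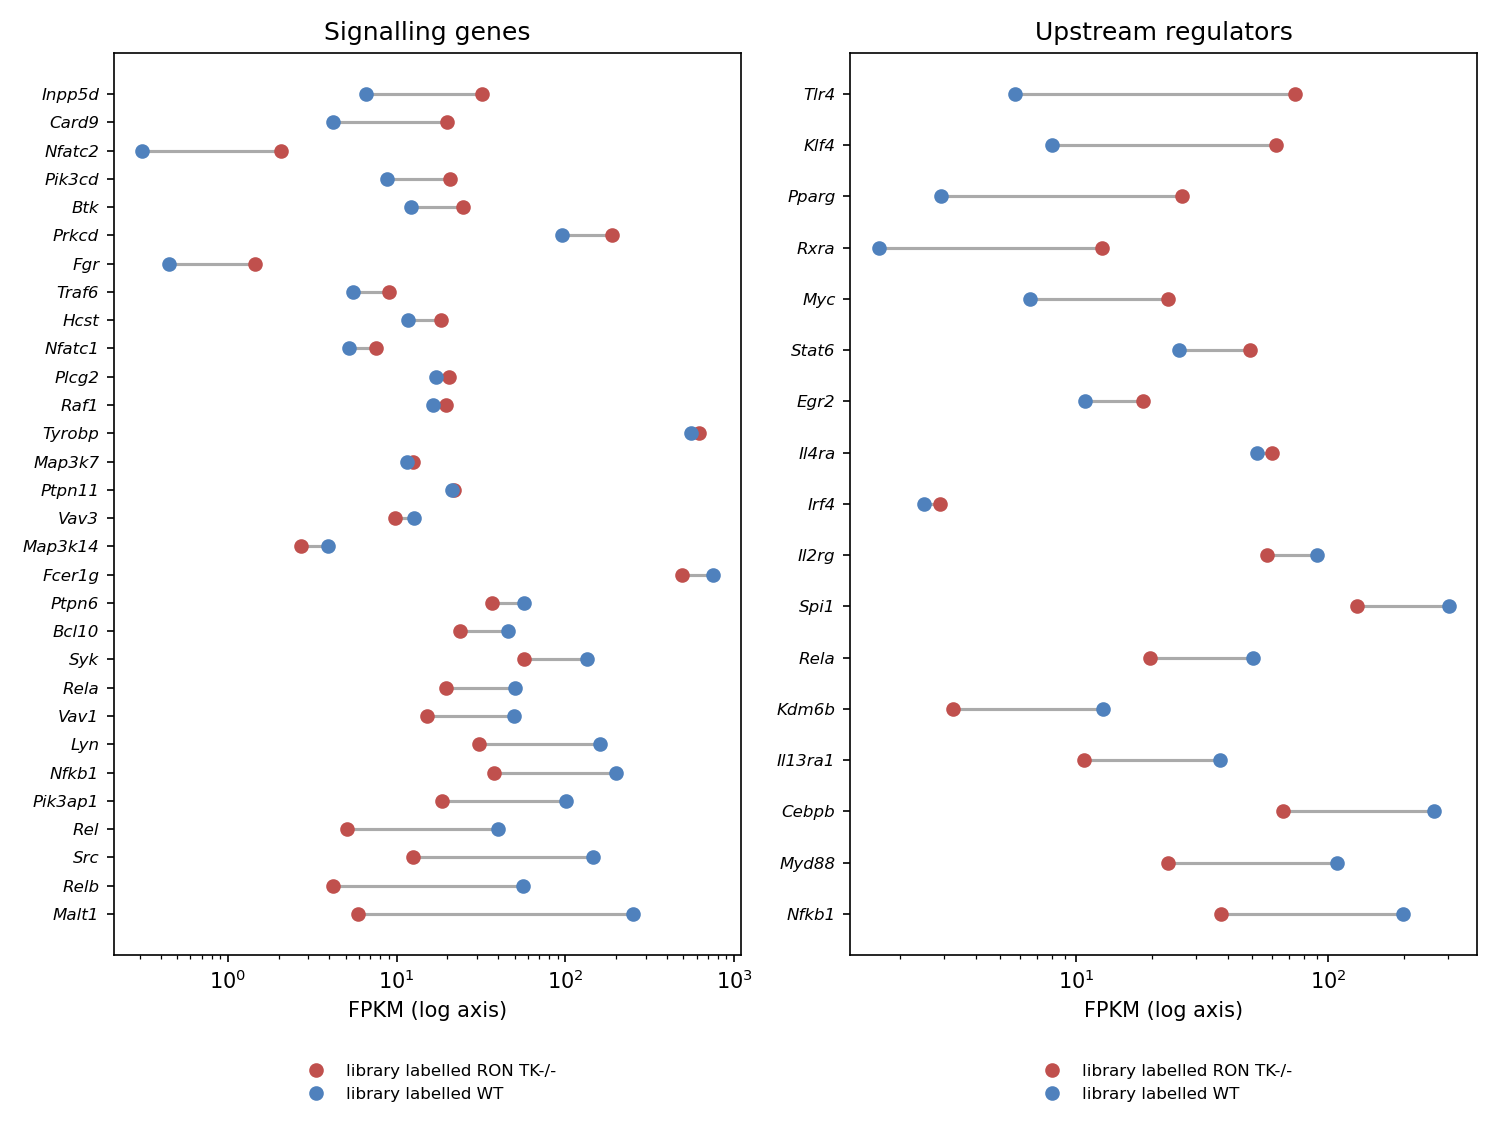
FPKM (log axis) of 30 of the 31 genes of lectin receptor signalling (left) and 17 of the 19 upstream regulators (right), ordered by log2 ratio of FPKM + 1; red points are the library labelled RON TK-/-, blue points the library labelled WT, and grey lines join the points of a gene. Malt1 at the bottom of the left panel has the widest gap with blue to the right, and Tlr4 at the top of the right panel the widest with red to the right.

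Other genes with a C-type lectin domain, in a list without the natural killer receptor (Klr) genes, were mostly not detected. Of 56 such genes, 20 were detected, and of these 4 were higher, 8 lower and 8 within 2-fold, beside 25.6% higher and 8.71% lower of all detected genes. With median rescaling 2 were higher and 12 lower, beside 8.42% and 13.9%. Their median ratio was -0.54 (log2) as deposited. Besides Cd69, Clec4a3, Olr1 and Clec12a, the genes farthest apart were the selectins Sele, listed at 0 in the RON TK-/- labelled library and at 4.34 FPKM in the WT labelled library, and Selp, at 2.80 FPKM in the RON TK-/- labelled library and 13.2 FPKM in the WT labelled library. The remaining higher genes, named after their values were seen, were Layn, Thbd and Clec4b1. With median rescaling Layn (log2 ratio 1.11 as deposited, 0.49 rescaled) and Clec4b1 (1.20 and 0.86) were no longer called. Mrc2, a relative of Mrc1 that takes up collagen, had 17.2 FPKM in the RON TK-/- labelled library and 25.0 FPKM in the WT labelled library. It was within 2-fold as deposited (log2 ratio -0.51) and was called lower with median rescaling (-1.13).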

How the data were processed

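Total RNA of 2 macrophage cultures was isolated with TRIZOL and sequenced as 50-base single reads from TruSeq RNA libraries, per the labels' protocols. For each library the authors deposited a table of FPKM values by RefSeq transcript, with Cufflinks column names, per the file headers. The coverage column, as deposited, holds the mean read depth of each transcript. The mm10 build and DESeq, without version, are named in the submitters' processing notes. Aligner, annotation release and strand setting: not given in the sources used here.

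FPKM were summed over rows per gene symbol, and log2 ratios used a pseudocount of 1 FPKM. A gene with at least 1 FPKM in a library was taken as detected. Reads per gene were estimated as coverage times length over 50, and their exact Poisson 95% intervals (reads rounded) and the level of 3 reads cover counting error only. File starts count from 0 and are printed counted from 1. Shared 50-base stretches were counted over GENCODE M21 transcripts. The ratio and the threshold were run on simulated data with planted changes and counting noise only. This checks the computation and cannot show how far replicate cultures would differ. The genes and lists were chosen with earlier results of these data known. All 10 genes, up to 6 genes per further list by size of ratio, 7 set genes (Syk, Card9, Fcer1g, Stat6, Irf4, Pparg, Il4ra) and genes between members were named, except for a few that are counted in their lists and not reported here. Python 3.11.15, numpy 2.4.6, scipy 1.17.1 and pandas 2.3.3 were used.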

Additional observations from a re-analysis of the deposited data

How the results depend on the processing

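With 1 library per group, no replicate could be left out. No paired analysis was possible because each group has 1 library. The counts of 5 higher and 3 lower lectin receptor genes were the same, except for 6 higher with a pseudocount of 0.1, where Cd209a (0.191 FPKM against a listed 0) passed 2-fold, under the pseudocounts, filters and rescalings and with the most abundant row of each gene, with estimated reads scaled to library totals (added after seeing the data) and with a 1.5-fold or 4-fold threshold. The signs of their 8 ratios held too; the widest range was Mgl2, from 6.21 to 9.16. The median over the lectin genes was 1.94 with a pseudocount of 0.1, 0.69 with 5, 2.35 over the 8 genes with at least 5 FPKM, 0.79 with median rescaling, 0.99 with upper quartile rescaling, 1.33 with TPM rescaling or estimated reads, and 1.06 with the most abundant row.

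Among all detected genes, the higher count was 983 with a pseudocount of 5, 1845 with upper quartile rescaling, 5519 at 1.5-fold and 419 at 4-fold (463 lower), and median rescaling gave 950 higher and 1564 lower genes, 37.8% of them higher against 74.6% as deposited. In the signalling list 2 genes were higher with a pseudocount of 5, median rescaling or the most abundant row, 9 at 1.5-fold and 1 at 4-fold. In the list of other lectin genes 2 were higher with a pseudocount of 5 (5 lower) or median rescaling, and 1 was higher and 4 were lower at 4-fold. Of the upstream regulators 2 were lower at 4-fold, and their median of 0.15 turned to -0.23 with the 5 FPKM minimum, -0.46 with median and -0.09 with upper quartile rescaling. The cause of these shifts was not tested.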
